A study of Mus musculus with 6 samples.

Results

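The genes described here are 10 components of the G1 cell cycle machinery of the mouse: the D cyclin genes Ccnd1, Ccnd2 and Ccnd3, the E cyclin gene Ccne1, the kinase genes Cdk4 and Cdk6, the inhibitor genes Cdkn1b, Cdkn2a and Cdkn2b, and the retinoblastoma gene Rb1. They were taken by name from a raw count table of 21899 gene identifiers, in which all 10 were present. RNA-seq was run on BV2 cells given a lentiviral shRNA against TonEBP (sh-TonEBP, 3 libraries) and on BV2 cells given a scrambled lentiviral shRNA (sh-NC, 3 libraries). TonEBP is the osmoregulated transcription factor encoded by Nfat5, and BV2 is an immortalized line labelled as mouse microglia. Both groups went through lentiviral delivery and puromycin selection and received no LPS, so an effect of either step common to both groups is not visible in the comparison. A single shRNA sequence stood for the knockdown, and no label says whether replicate libraries were grown as separate cultures. The p-values therefore measure only the spread from library to library, which may be technical.

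The libraries held 13621188 to 16140042 counts in sh-TonEBP and 15288505 to 15555269 counts in sh-NC. Levels are given as CPM, which are read counts scaled to a common library size with TMM factors, and a count of 0 allowed a level of up to 0.188 to 0.216 CPM (3 counts, for counting error only). The Nfat5 counts were 3894, 4631 and 5257 in sh-TonEBP, against 9641, 11640 and 9652 in sh-NC, so the targeted transcript was lower in every library labelled as knockdown (log2 fold change -1.14, SE 0.16, adjusted p = 0.000159 by edgeR's quasi-likelihood test with Benjamini-Hochberg adjustment). The labelled cell type was checked against 18 microglial and myeloid markers, of which 13 lay under 1 CPM in every library. The defining markers C1qa and P2ry12 had 0 counts throughout, and Spi1, Ptprc, Itgam and Aif1 had at most 3 counts in any library. Csf1r had 2, 4 and 5 counts in sh-TonEBP, against 8, 14 and 17 counts in sh-NC. Of the 4 markers that could be tested, Tmem119 was higher in sh-TonEBP (12.5 ± 0.82 CPM in sh-TonEBP and 4.87 ± 1.56 CPM in sh-NC, edgeR adjusted p = 0.000334) and Cd68 was lower (4.29 ± 0.80 CPM in sh-TonEBP and 13.0 ± 1.55 CPM in sh-NC, edgeR adjusted p = 5.7e-05). Sall1 (1.53 ± 0.10 CPM in sh-TonEBP and 2.48 ± 0.13 CPM in sh-NC) and Laptm5 (1.98 ± 0.24 CPM in sh-TonEBP and 2.63 ± 0.07 CPM in sh-NC) did not pass. The summed level of the 18 markers was 21.2 to 21.6 CPM in sh-TonEBP and 23.8 to 26.0 CPM in sh-NC. The label microglia goes against most of these markers, and the cells are called BV2 below. The summed level of 12 fibroblast markers, with Thy1 at 0 in every library, was 1724 to 1878 CPM in sh-TonEBP and 674 to 717 CPM in sh-NC, with Col3a1 as its largest member (1372 ± 95 CPM in sh-TonEBP and 342 ± 6.35 CPM in sh-NC). Among the 12, 3 lay under 1 CPM in every library, and 5 had a mean over 10 CPM in sh-NC. Of the 9 fibroblast markers tested 6 were higher and 1, Prrx1, was lower. These shares were 66.7% and 11.1%, against 26.3% and 26.2% of all genes tested. Of 8 epithelial markers, 6 lay under 1 CPM in every library, with Krt14 at 0, and the sum of 1209 to 1518 CPM in sh-TonEBP and 618 to 752 CPM in sh-NC came almost wholly from Krt8 and Krt18. The part of these markers in the results on the cell cycle genes was not tested.

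In G1 phase, D cyclins bind CDK4 or CDK6 and the resulting kinases phosphorylate the retinoblastoma protein, which otherwise holds E2F transcription factors inactive at the promoters of genes for DNA replication. Cyclin E with CDK2 then completes this phosphorylation, and the cell passes into S phase. Inhibitors of the INK4 family (p16INK4a from Cdkn2a, p15INK4b from Cdkn2b) bind CDK4 and CDK6, whereas those of the CIP/KIP family (p27 from Cdkn1b) bind cyclin and kinase complexes. The Cdkn2a and Cdkn2b locus is often lost or silenced in immortalized mouse lines.

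The promoter windows of the members whose transcripts marked the extremes of the results are shown first: both starts of Cdkn2a and the start of Cdkn2b, from which no reads were counted, and those of Cdk4 and Cdk6, the partner kinases that moved in opposite directions. Each window holds 300 bases, 250 before and 50 after an annotated start, from RefSeq on GRCm38.p6, an older build than that named in the submitters' notes. Such windows were found for 7 of the 10 genes (9 windows), and Ccnd1, Ccnd2 and Rb1 are named only. In the windows of the inhibitor genes the capitals mark every CG dinucleotide, the site of DNA methylation. The upstream start of Cdkn2a gives p19ARF, which acts on p53, and the downstream start gives p16INK4a. The upstream window is chr4:89294570-89294869, the downstream window is chr4:89282143-89282442 and the Cdkn2b window is chr4:89310983-89311282, all on the minus strand.
Cdkn2a, upstream start: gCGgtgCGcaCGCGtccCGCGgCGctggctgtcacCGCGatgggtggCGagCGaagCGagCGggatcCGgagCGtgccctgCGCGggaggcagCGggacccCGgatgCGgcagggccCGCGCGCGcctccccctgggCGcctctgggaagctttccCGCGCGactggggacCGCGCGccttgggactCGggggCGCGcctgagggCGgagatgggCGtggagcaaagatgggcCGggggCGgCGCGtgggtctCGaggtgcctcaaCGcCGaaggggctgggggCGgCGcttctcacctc
Cdkn2a, downstream start: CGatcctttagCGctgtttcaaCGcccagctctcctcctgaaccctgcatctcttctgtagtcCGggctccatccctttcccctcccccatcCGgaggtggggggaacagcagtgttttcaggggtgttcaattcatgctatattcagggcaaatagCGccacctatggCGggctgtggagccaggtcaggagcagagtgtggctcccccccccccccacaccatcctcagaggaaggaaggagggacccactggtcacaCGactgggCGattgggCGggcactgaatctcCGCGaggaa
Cdkn2b: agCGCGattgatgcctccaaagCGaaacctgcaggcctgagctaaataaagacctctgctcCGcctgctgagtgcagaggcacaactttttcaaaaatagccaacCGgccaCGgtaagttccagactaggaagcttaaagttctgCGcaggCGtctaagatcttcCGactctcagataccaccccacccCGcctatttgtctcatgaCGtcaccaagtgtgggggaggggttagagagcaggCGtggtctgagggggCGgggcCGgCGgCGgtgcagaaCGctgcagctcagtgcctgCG
The upstream window of Cdkn2a held 45 CG dinucleotides, more than 98.1% of 32851 such windows at mouse gene starts, whereas the median window held 7. There were 12 in the downstream window of Cdkn2a and 18 in that of Cdkn2b, more than 60.4% and 70.3% of windows. Methylation was not measured in these cells.

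In the kinase windows the capitals mark CACGTG, the core E-box bound by MYC and related factors, which reads the same on both strands. The windows are chr10:127063285-127063584 for Cdk4 and chr5:3343643-3343942 for Cdk6, both on the plus strand.
Cdk4: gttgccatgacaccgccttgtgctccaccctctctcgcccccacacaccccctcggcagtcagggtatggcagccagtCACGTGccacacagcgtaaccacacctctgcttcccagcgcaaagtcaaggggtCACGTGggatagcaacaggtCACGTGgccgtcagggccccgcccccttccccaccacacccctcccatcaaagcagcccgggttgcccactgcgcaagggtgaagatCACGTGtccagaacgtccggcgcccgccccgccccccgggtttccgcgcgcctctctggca
Cdk6: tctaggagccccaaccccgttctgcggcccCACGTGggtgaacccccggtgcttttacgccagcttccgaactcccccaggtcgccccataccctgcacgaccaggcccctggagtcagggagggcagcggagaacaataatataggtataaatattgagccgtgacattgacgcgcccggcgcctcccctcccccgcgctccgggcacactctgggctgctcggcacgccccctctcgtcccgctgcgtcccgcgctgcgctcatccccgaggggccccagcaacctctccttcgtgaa
The Cdk4 window held 4 copies, a number reached in 0.0244% of all windows, and the Cdk6 window held 1, while 7.15% of windows held at least 1. The other 7 windows held none. Forms of the E2F site (TTTCCCGC, TTTGGCGC, TTTCGCGC or TTTGCCGC on either strand) were present in 2.26% of all windows and, among the 9, only in the upstream window of Cdkn2a. TGGAAA, the core of the TonEBP element, was present in 21.4% of all windows and in none of the 9. The motifs were chosen after the sequences were seen, and a match describes letters, not binding.

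Of the 10 genes, 8 had enough reads to be tested, while Cdkn2a and Cdkn2b had none. Ccnd3, Ccne1 and Cdk4 were higher and Ccnd2, Cdk6 and Rb1 were lower in sh-TonEBP at an adjusted p under 0.05, and Ccnd1 and Cdkn1b did not pass. These 6 calls among 8 have to be read against the background, since 52.5% of the 11943 genes tested passed the same threshold (26.3% higher and 26.2% lower). In 6 of the 8 genes the groups did not overlap, against 62.7% of all genes tested (31.2% higher and 31.5% lower). The median log2 fold change of the 8 was 0.10, and that of all genes tested was 0.00072. At the cutoffs the study used, an unadjusted p under 0.05 and a log2 fold change beyond 1, Cdk6 alone passed, where 6.38% of all genes tested were called higher and 8.53% lower.

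**Figure D1:**
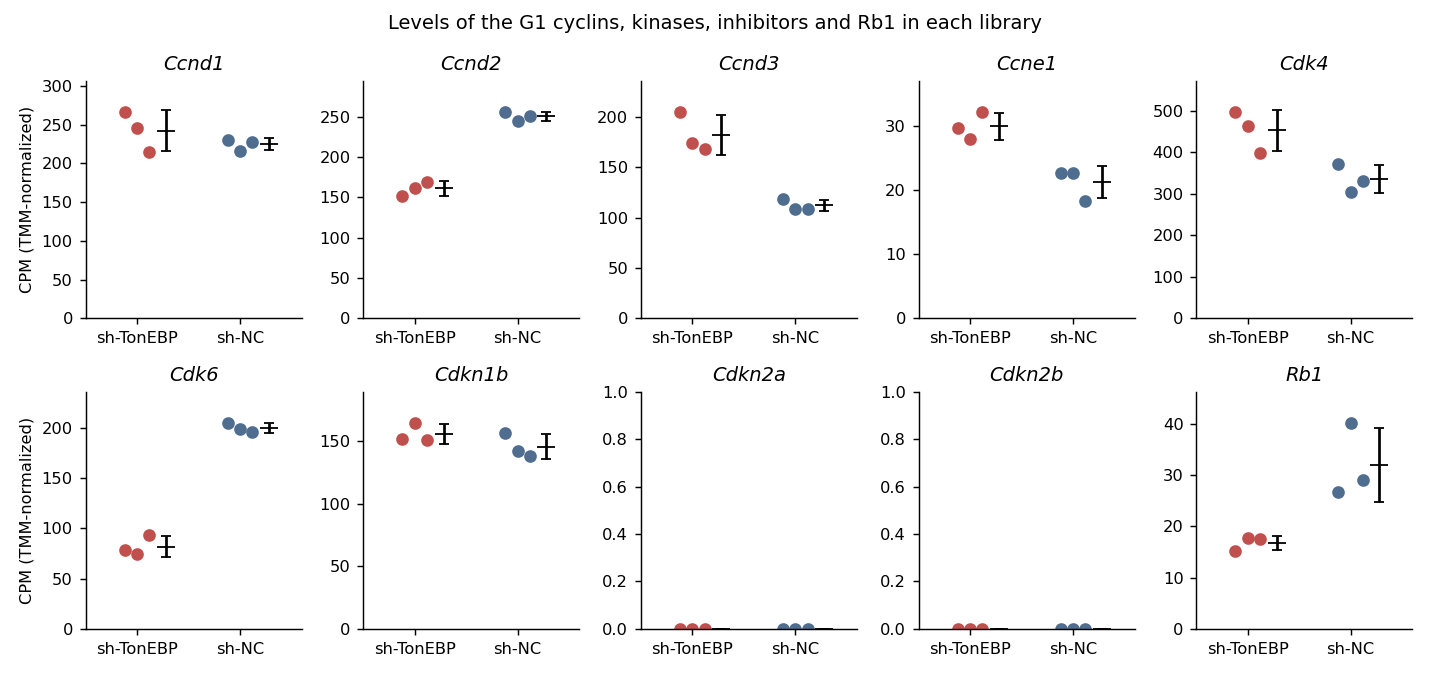
TMM-normalized CPM of each of the 10 genes in the 3 sh-TonEBP and 3 sh-NC libraries, with 1 panel per gene and each axis starting at 0. Points are libraries and lines with bars are means ± SD; sh-TonEBP lies above sh-NC with no overlap for Ccnd3, Ccne1 and Cdk4, below it for Ccnd2, Cdk6 and Rb1, and Cdkn2a and Cdkn2b stay at 0.

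The 3 D cyclin genes moved in different directions. Ccnd2 (ENSMUSG00000000184), which encodes cyclin D2, was at 152, 162 and 170 CPM in sh-TonEBP, against 256, 245 and 251 CPM in sh-NC. All 3 sh-TonEBP libraries lay below all 3 sh-NC libraries, and the mean was 1.56-fold lower (161 ± 9.14 CPM in sh-TonEBP and 251 ± 5.47 CPM in sh-NC, SD, n = 3 each; edgeR log2 fold change -0.64, SE 0.10, adjusted p = 0.000367). Ccnd3 (ENSMUSG00000034165), the gene of cyclin D3, stood at 205, 174 and 168 CPM in sh-TonEBP, against 119, 109 and 109 CPM in sh-NC. Here every sh-TonEBP library was higher, by 1.63-fold (183 ± 19.8 CPM in sh-TonEBP and 112 ± 5.79 CPM in sh-NC; edgeR log2 fold change 0.70, SE 0.11, adjusted p = 0.00038). Ccnd1 (ENSMUSG00000070348), the gene of cyclin D1 and the main target of mitogen signaling in this family, had 266, 246 and 215 CPM in sh-TonEBP, against 231, 216 and 227 CPM in sh-NC. Its groups overlapped, with the third sh-TonEBP library below every sh-NC library, and the difference did not pass (edgeR log2 fold change 0.11, 95% interval -0.14 to 0.36, adjusted p = 0.43).

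The shares of the D cyclin transcripts were computed within each library. Per kilobase of the longest coding transcript, Ccnd3 took 48.8 ± 1.55% of the summed D cyclin level in sh-TonEBP and 34.8 ± 0.82% in sh-NC. The share of Ccnd2 was 14.5 ± 1.97% in sh-TonEBP and 25.9 ± 0.34% in sh-NC, and that of Ccnd1 was 36.6 ± 1.44% in sh-TonEBP and 39.3 ± 0.61% in sh-NC. Ccnd3 held the largest share in every sh-TonEBP library and Ccnd1 in every sh-NC library. The sum itself was 177 ± 14.4 CPM per kb in sh-TonEBP and 153 ± 5.24 CPM per kb in sh-NC. These shares were not tested apart from the genes, and they depend on the transcript length taken for Ccnd3. Its longest coding transcript has 2113 bases but its joined exons have 8775, and with joined exons of all members Ccnd3 was at 20.8 ± 2.26 CPM per kb in sh-TonEBP and 12.8 ± 0.66 CPM per kb in sh-NC, below Ccnd1 in both groups and below Ccnd2 in sh-NC.

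**Figure D2:**
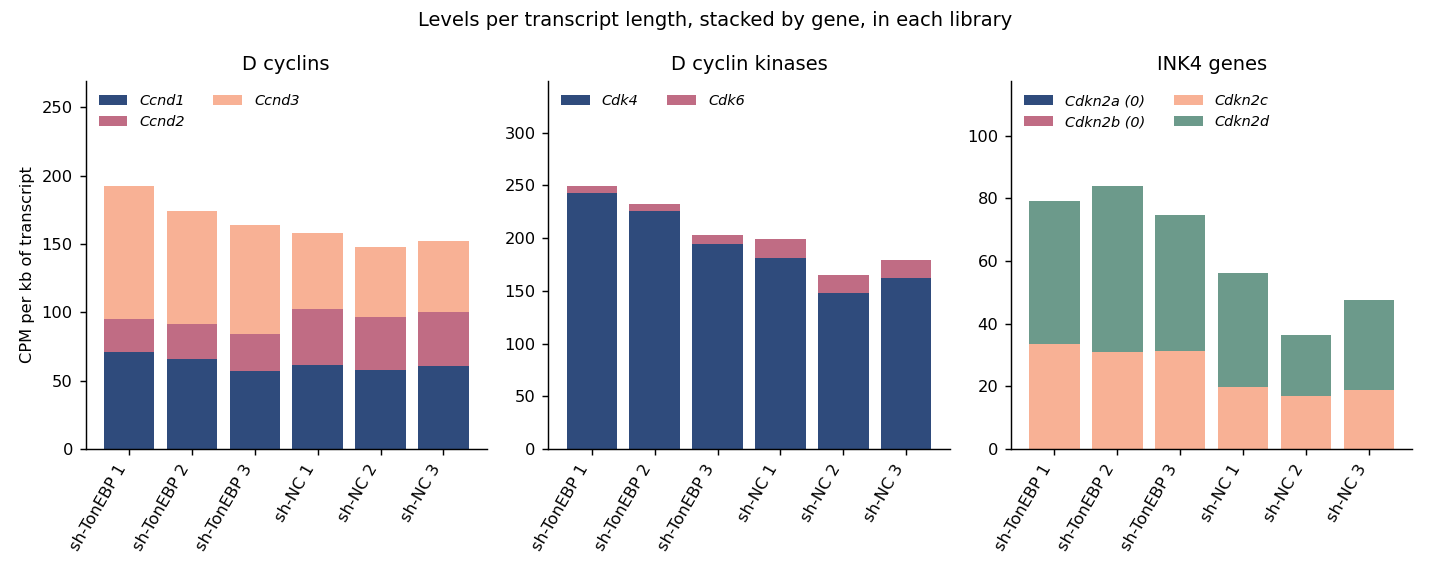
Levels per kilobase of transcript (CPM per kb) stacked by gene in each library, for the D cyclins, their kinases and the INK4 inhibitors, with the 3 sh-TonEBP libraries to the left of the 3 sh-NC libraries. Ccnd3 makes up 48.8% of the D cyclin sum in sh-TonEBP and 34.8% in sh-NC on average, and Cdk6 makes up 3.17% of the kinase sum in sh-TonEBP and 9.64% in sh-NC.

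Ccne1 (ENSMUSG00000002068) encodes cyclin E1, the partner of CDK2 at the end of G1. Its level was 29.6, 28 and 32.2 CPM in sh-TonEBP, against 22.7, 22.6 and 18.3 CPM in sh-NC. Each sh-TonEBP library exceeded each sh-NC library, with a mean 1.41-fold higher (29.9 ± 2.12 CPM in sh-TonEBP and 21.2 ± 2.49 CPM in sh-NC; edgeR log2 fold change 0.50, SE 0.14, adjusted p = 0.0101). The lowest of the 6 values was that of the third sh-NC library, and without it the log2 fold change was 0.40 and the adjusted p was 0.0711. Ccne2, the gene of cyclin E2, did not pass (log2 fold change 0.05, 95% interval -0.42 to 0.52), and Cdk2 fell to 75.6 ± 2.73 CPM in sh-TonEBP, against 100.5 ± 2.02 CPM in sh-NC (edgeR log2 fold change -0.41, SE 0.10, adjusted p = 0.00569).

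The kinase genes that share the D cyclins as partners went in opposite directions. Cdk6 (ENSMUSG00000040274) had 78.6, 74.3 and 93.3 CPM in sh-TonEBP, against 205, 199 and 196 CPM in sh-NC. All sh-TonEBP libraries lay far below all sh-NC libraries, and the mean was 2.44-fold lower (82.1 ± 9.99 CPM in sh-TonEBP and 200.1 ± 4.92 CPM in sh-NC; edgeR log2 fold change -1.29, SE 0.12, adjusted p = 8.8e-06). This was the largest fold among the 8 genes tested. Cdk4 (ENSMUSG00000006728) had 498, 463 and 399 CPM in sh-TonEBP, against 372, 304 and 332 CPM in sh-NC. The sh-TonEBP libraries were higher without overlap, although the lowest of them and the highest sh-NC library were close, and the mean was 1.35-fold higher (453 ± 50 CPM in sh-TonEBP and 336 ± 34.3 CPM in sh-NC; edgeR log2 fold change 0.43, SE 0.13, adjusted p = 0.0118). Without the third sh-NC library the log2 fold change of Cdk4 was 0.42 and its adjusted p was 0.0513.

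Cdk4 was the main kinase transcript in both groups. Per kilobase, Cdk6 made up 3.17 ± 0.72% of the sum of both genes in sh-TonEBP and 9.64 ± 0.77% in sh-NC. The ratio of Cdk4 to Cdk6 per kilobase was 35.5, 35.0 and 24.0 in the sh-TonEBP libraries, against 10.2, 8.55 and 9.53 in the sh-NC libraries, so the lowest sh-TonEBP ratio exceeded the highest sh-NC ratio. Their sum was 228 ± 23.6 CPM per kb in sh-TonEBP and 181 ± 17.0 CPM per kb in sh-NC. Most of that sum came from Cdk4 in every library. The shares and ratios are not adjusted for the trends on length and GC content described below. With both trends removed, the log2 fold change was 0.13 for Cdk4 (0.43 before) and -0.55 for Cdk6 (-1.29 before).

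Among the inhibitors, Cdkn1b (ENSMUSG00000003031) was the only member with reads. It encodes p27, which binds cyclin and CDK complexes, and had 151, 165 and 151 CPM in sh-TonEBP, against 157, 143 and 138 CPM in sh-NC. The groups overlapped, and no difference was called (156 ± 7.80 CPM in sh-TonEBP and 146 ± 9.89 CPM in sh-NC; edgeR log2 fold change 0.10, 95% interval -0.14 to 0.33, adjusted p = 0.46). The interval does not show that the level was the same, and with length and GC content removed, as described below, the log2 fold change was 0.51, outside this interval. Its relative Cdkn1a, the gene of p21 and a target of p53, had 84.2, 64.5 and 41.4 CPM in sh-TonEBP, against 211, 124 and 145 CPM in sh-NC. Cdkn1a was lower in every sh-TonEBP library (edgeR log2 fold change -1.33, SE 0.26, adjusted p = 0.0021), with a wide spread in both groups. Cdkn1b took 53.7 ± 8.67% of the summed CIP/KIP level per kilobase in sh-TonEBP and 30.0 ± 4.55% in sh-NC, while Cdkn1c, the gene of p57, was under the filter with 0 to 7 counts per library.

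Cdkn2a (ENSMUSG00000044303) and Cdkn2b (ENSMUSG00000073802) had 0 counts in all 3 sh-TonEBP and all 3 sh-NC libraries. No read of p16INK4a, of p19ARF, which shares an exon of Cdkn2a in another reading frame, or of p15INK4b was therefore counted in either group, and each level was under the limit of 0.188 to 0.216 CPM that a count of 0 allows. No fold change can be given. In all, 25.6% of the identifiers in the table had 0 counts in every library, so the 0 alone does not set these genes apart. Only RNA was measured, and a gene that is absent from the genome cannot be told apart from one that is present and silent.

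The counts of the neighbours on chromosome 4 are given beside those of Cdkn2a and Cdkn2b. In the gene order of an older annotation, 42 entries of the table run from Mllt3 to Elavl2, with Cdkn2a and Cdkn2b near the end of the row. The direct neighbour of Cdkn2a is Mtap, the gene of methylthioadenosine phosphorylase, a methionine salvage enzyme that is often deleted together with CDKN2A in human tumours. Mtap had 3146, 3412 and 3117 counts in sh-TonEBP, against 2586, 3101 and 2678 counts in sh-NC. All 6 libraries held many Mtap reads, and the groups did not differ beyond the threshold (212 ± 13.8 CPM in sh-TonEBP and 181 ± 21.6 CPM in sh-NC; edgeR log2 fold change 0.23, adjusted p = 0.117). On the far side, the 5 entries from Cdkn2a to Elavl2 (with Cdkn2b, Dmrta1 and Zfp352) had at most 2 counts in any library and 5 counts over all 6 libraries, 4 of them in Dmrta1.

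On the side of Mtap that faces away from Cdkn2a lies the type I interferon cluster, whose genes are silent in most unstimulated cells. Of its 32 entries in the table, 22 had 0 counts in every library, Ifne among them, and the largest count was 24. Beyond and within this cluster, Klhl9, a ubiquitin ligase adaptor, was lower in sh-TonEBP (edgeR log2 fold change -0.47, adjusted p = 0.00795, but a log2 fold change of -0.045 with length and GC content removed). Hacd4, an enzyme of fatty acid elongation, was higher (edgeR log2 fold change 0.70, adjusted p = 0.013), a call lost without the third sh-TonEBP library (adjusted p = 0.0529) or the third sh-NC library (adjusted p = 0.0542). Focad (log2 fold change -0.40, adjusted p = 0.0529) and Mllt3 (log2 fold change -0.09, adjusted p = 0.61) did not pass. Of the 42 entries, 25 had 0 counts in every library and 36 had at most 10 counts, so low counts were the usual state of this stretch of the table. The 5 with over 100 counts in every library (Mllt3, Focad, Hacd4, Klhl9 and Mtap) all lay on the Mtap side. Whether Dmrta1, Zfp352 and Elavl2 on the far side would have reads in such cells with the locus intact was not tested.

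**Figure D3:**
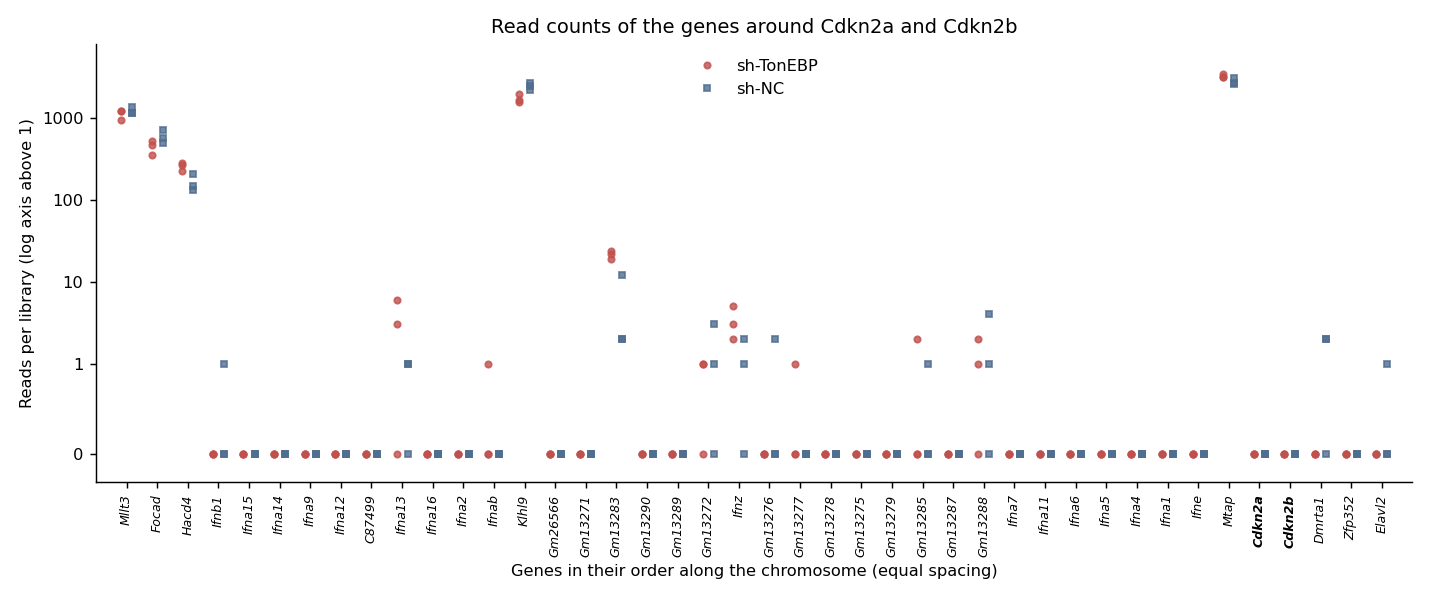
Raw read counts per library (log axis above 1) of the 42 table entries from Mllt3 to Elavl2 in their chromosomal order, evenly spaced, with sh-TonEBP as circles to the left of sh-NC as squares. Mtap stands at 2586 to 3412 counts next to Cdkn2a and Cdkn2b at 0, and no entry from Cdkn2a to Elavl2 exceeds 2 counts.

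The remaining INK4 genes supplied all INK4 reads. Cdkn2c, the gene of p18INK4c, was at 83.1, 76.9 and 77.0 CPM in sh-TonEBP, against 48.9, 41.6 and 46.9 CPM in sh-NC. It was higher in each sh-TonEBP library (edgeR log2 fold change 0.79, SE 0.11, adjusted p = 0.000167). Cdkn2d, the gene of p19INK4d, was higher as well, at 64.7, 75.1 and 62.1 CPM in sh-TonEBP, against 52.0, 27.9 and 40.6 CPM in sh-NC (edgeR log2 fold change 0.75, SE 0.19, adjusted p = 0.00762). With length and GC content removed, the log2 fold change was 0.43 for Cdkn2c and 0.24 for Cdkn2d, and the sums below are not adjusted in this way. Per kilobase the INK4 sum was 79.3 ± 4.54 CPM per kb in sh-TonEBP and 46.8 ± 9.97 CPM per kb in sh-NC. Cdkn2c made up 40.4 ± 2.90% of it in sh-TonEBP and 40.4 ± 5.60% in sh-NC, Cdkn2d the rest, and Cdkn2a and Cdkn2b nothing.

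Rb1 (ENSMUSG00000022105) encodes the pocket protein on which these kinases act. It had 15.1, 17.7 and 17.4 CPM in sh-TonEBP, against 26.7, 40.2 and 29.0 CPM in sh-NC. The sh-TonEBP libraries were lower without overlap, and the second sh-NC library stood above the other two (16.8 ± 1.44 CPM in sh-TonEBP and 32.0 ± 7.22 CPM in sh-NC, 1.91-fold lower; edgeR log2 fold change -0.93, SE 0.17, adjusted p = 0.000754). Neither of the related pocket protein genes passed, Rbl1 with a log2 fold change of -0.02 (95% interval -0.35 to 0.32) and Rbl2 with -0.13 (95% interval -0.41 to 0.14). Rb1 made up 14.1 ± 0.95% of the pocket protein sum per kilobase in sh-TonEBP and 22.8 ± 1.65% in sh-NC, the smallest share of the 3 genes in both groups. In bulk RNA, fewer cells with a transcript and less transcript per cell cannot be told apart for any of these genes.

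Ordered by level per kilobase of the longest coding transcript, the 8 genes with reads covered a wide range. In sh-TonEBP the order was Cdk4 (221 ± 24.4 CPM per kb), Ccnd3 (86.4 ± 9.38), Ccnd1 (64.8 ± 6.96), Cdkn1b (34.2 ± 1.71), Ccnd2 (25.4 ± 1.44), Ccne1 (15.0 ± 1.06), Cdk6 (7.12 ± 0.87) and Rb1 (3.60 ± 0.31). In sh-NC it was Cdk4 (164 ± 16.7 CPM per kb), Ccnd1 (60.1 ± 2.07), Ccnd3 (53.1 ± 2.74), Ccnd2 (39.6 ± 0.86), Cdkn1b (32.0 ± 2.17), Cdk6 (17.4 ± 0.43), Ccne1 (10.6 ± 1.24) and Rb1 (6.87 ± 1.55). Cdk4 was first and Rb1 last in both groups, and 3 neighbouring pairs changed places (Ccnd1 and Ccnd3, Ccnd2 and Cdkn1b, Ccne1 and Cdk6). No neighbours overlapped in their library values, but Ccnd1 and Ccnd3 in sh-NC (lowest 57.7 against highest 56.3 CPM per kb) and Ccne1 and Rb1 in sh-NC (lowest 9.17 against highest 8.63 CPM per kb) were close. With the joined exons as length, Ccnd3 was at position 4 in sh-TonEBP and at position 6 in sh-NC, and Ccnd1 stood above Ccnd3 and Cdkn1b above Ccnd2 in both groups. Of the 3 exchanges only that of Ccne1 and Cdk6 was then left, and Ccnd3 stood above Ccnd2 and Cdk6 in sh-TonEBP and below both in sh-NC.

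Transcript length moved with the direction of these changes. Measured on the longest coding transcript, the 3 genes that rose are the shortest of the 8, at 2000 bases for Ccne1, 2053 for Cdk4 and 2113 for Ccnd3. Those that fell are longer, at 4656 bases for Rb1, 6330 for Ccnd2 and 11525 for Cdk6, and Ccnd1 (3740 bases) and Cdkn1b (4552 bases), which did not pass, lie between. The same tendency was present across 11929 genes tested, where Spearman's rho of log2 fold change with length was -0.30 and with GC content 0.43, as a description across genes of the same libraries, which are not independent replicates. With joined exons the split by length does not hold for Ccnd3, at 8775 bases against 6015 for Rb1, 4709 for Ccnd1 and 4552 for Cdkn1b. The length trend used the longest coding transcript of these genes, and none was fitted on joined exons. With the length trend removed, the log2 fold change of Cdk6 was -0.76, of Ccnd2 -0.38, of Rb1 -0.81, of Ccnd3 0.60, of Ccne1 0.38 and of Cdk4 0.32. In a second step a trend on GC content was removed from the values already adjusted for length. The log2 fold changes were then -0.55 for Cdk6, -0.27 for Ccnd2, -0.43 for Rb1, 0.30 for Ccnd3, 0.21 for Ccne1 and 0.13 for Cdk4, each in the same direction but smaller. The genes that had not passed were then at 0.07 (Ccnd1) and 0.51 (Cdkn1b, the highest of the 8). These adjusted values carry no test. That of the targeted gene Nfat5, at 13380 bases, was -0.54 with the length trend removed and -0.23 with both.

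**Figure D4:**
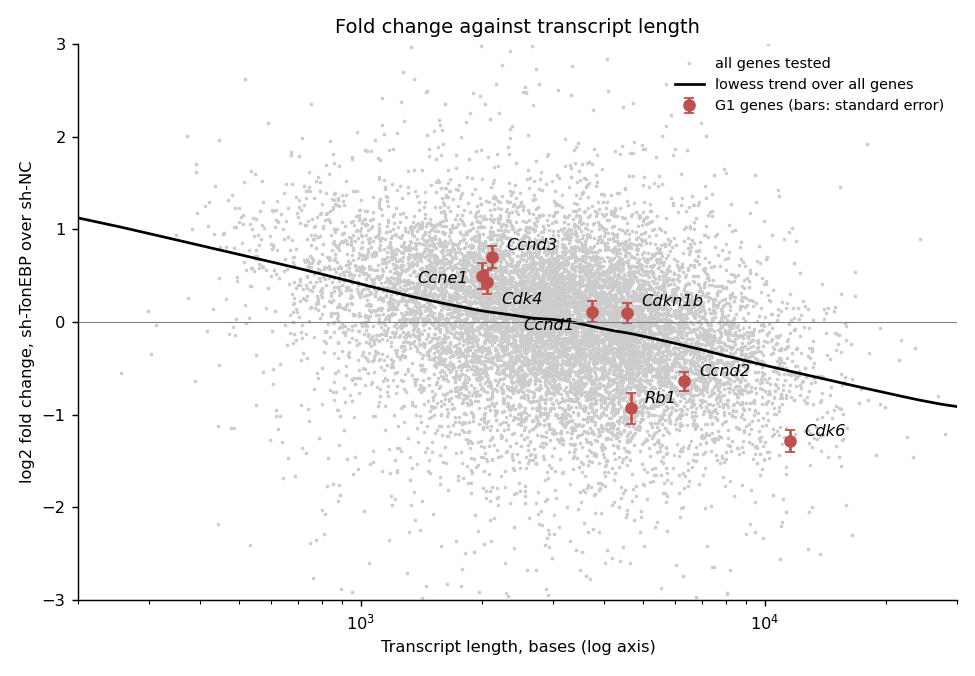
Log2 fold change (sh-TonEBP over sh-NC) against transcript length in bases (log axis) for all genes tested with a length (grey), with a lowess trend (black line) and the 8 G1 genes tested (points with bars for the standard error). The genes of 2000 to 2113 bases, Ccne1, Cdk4 and Ccnd3, lie above 0 and those of 4656 to 11525 bases, Rb1, Ccnd2 and Cdk6, below 0. Lengths of the G1 genes are those of the longest coding transcript, and with joined exons Ccnd3 has 8775 bases and Rb1 6015.

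Some members share exon bases with another gene, and no source used here states whether the counting used strand, so their counts are uncertain to that extent. Each length given is the longest stretch shared by a single pair of exons, and the total shared was not computed. Cdk4 shares a stretch of 641 bases with Tspan31 (881 to 1577 counts per library, log2 fold change 0.64), and Ccnd3 shares one of 361 bases with Bysl (695 to 1135 counts, log2 fold change 0.42). Ccnd1 shares a stretch of 818 bases with LTO1 (86 to 234 counts, log2 fold change 0.91). Ccnd2 shares exon stretches of 372 and 193 bases with the antisense genes Gm43126 and 9330179D12Rik. Cdk6 shares an exon stretch of 320 bases with the antisense gene Gm17590. No counts were available for these antisense genes. Rb1, with 241 to 606 counts, shares a stretch of 383 bases with Rcbtb2 (197 to 383 counts, log2 fold change 0.76) and one of 209 bases with Lpar6 (41 to 77 counts). Rcbtb2 was higher in sh-TonEBP while Rb1 was lower.

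Other regulators of the G1 to S transition were read from a list of 40 genes, of which 38 were tested. In sh-TonEBP 6 were higher and 9 lower, and 23 did not pass, with a median log2 fold change of -0.01. The share called, 15.8% higher and 23.7% lower, lay below the background of 26.3% and 26.2%. Besides Cdkn2c and Cdkn2d, the higher genes were Cks1b, the cofactor of SKP2 in p27 turnover, E2f2, Ubac1, a subunit of another ubiquitin ligase for p27, and Trp53, the gene of p53. The log2 fold change of Cks1b was 0.43, but -0.056 with the length trend removed. Trp53 kept its call in 1 of 6 fits that each left out a library (adjusted p = 0.0556 to 0.0914 in the others), and its log2 fold change was 0.37, or 0.022 with length and GC content removed. The lower genes included Myc, a transcription factor that drives entry into G1, which had 357, 355 and 258 CPM in sh-TonEBP, against 593, 691 and 582 CPM in sh-NC. No sh-TonEBP library reached the sh-NC levels of Myc (edgeR log2 fold change -0.94, SE 0.14, adjusted p = 0.000231). Dmtf1, an activator of the Arf promoter and itself a binder of D cyclins, fell to 44.4 ± 8.05 CPM in sh-TonEBP, against 107 ± 17.1 CPM in sh-NC (edgeR log2 fold change -1.28, SE 0.16, adjusted p = 6e-05). E2f5, a repressor of the E2F family, fell to 14.2 ± 2.65 CPM in sh-TonEBP, against 31.9 ± 4.13 CPM in sh-NC (edgeR log2 fold change -1.17, SE 0.17, adjusted p = 0.000157). With Cdkn1a and Cdk2, described above, the lower genes also held Foxo3, Rnf123, the partner of Ubac1, Tfdp2, an E2F partner, and Mnat1, a subunit of the CDK-activating kinase. With length and GC content removed Tfdp2 was at 0.18 and Mnat1 at 0.20, against -0.34 and -0.35 before. Foxo3 was at -0.30, or -0.012 with the length trend removed. The calls of Foxo3 and Tfdp2 were lost in 4 and that of Mnat1 in 3 of the 6 fits that left out a library, and also that of Tfdp2 with DESeq2 (adjusted p = 0.0522) and that of Foxo3 with no filter (adjusted p = 0.0677).

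**Figure D5:**
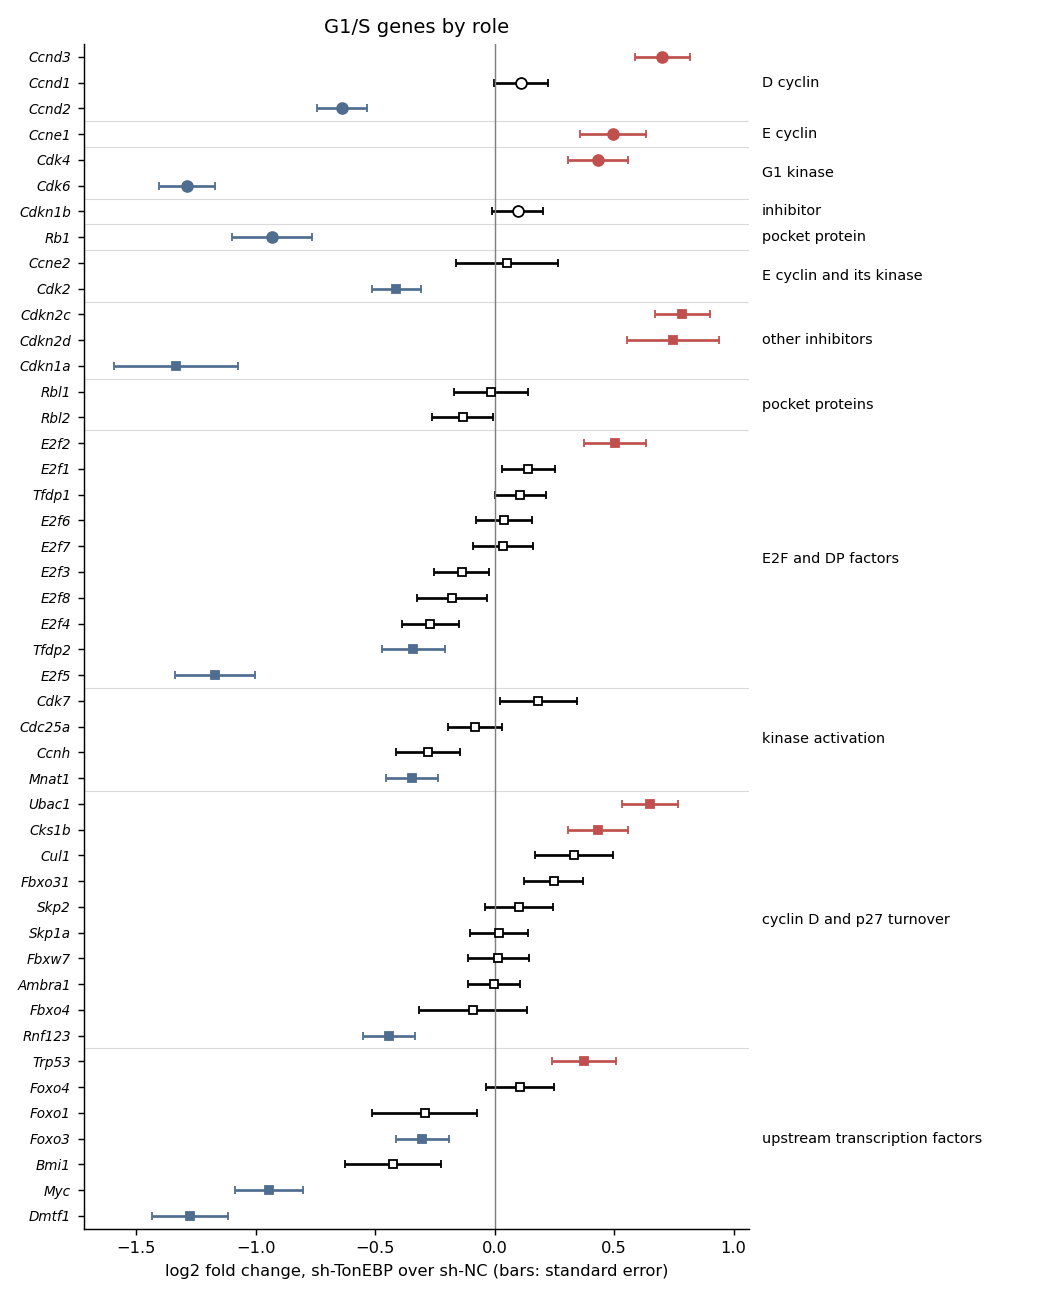
Log2 fold change (sh-TonEBP over sh-NC, bars for the standard error) of the 8 members tested (circles) and 38 other G1/S regulators (squares), ordered by role, with filled symbols for an adjusted p under 0.05. Calls in both directions occur within single roles: Ccnd3 at 0.70 and Ccnd2 at -0.64 among the D cyclins, Cdk4 at 0.43 and Cdk6 at -1.29 among the kinases, Cdkn2c at 0.79 and Cdkn1a at -1.33 among the other inhibitors.

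Genes that E2F factors activate at the start of S phase were read from a second list of 40, all tested. Of these, 15 were higher and 3 lower in sh-TonEBP and 22 did not pass, that is 37.5% higher and 7.5% lower against a background of 26.3% and 26.2%. Their median log2 fold change was 0.19, or 0.13 with the length trend removed and 0.080 with length and GC content removed. The higher genes were led by Mcm5, a subunit of the replicative helicase, at 286, 209 and 262 CPM in sh-TonEBP, against 123, 116 and 123 CPM in sh-NC (edgeR log2 fold change 1.06, SE 0.13, adjusted p = 4.8e-05). Cdc6, which loads that helicase, had 61.8, 64.1 and 64.9 CPM in sh-TonEBP, against 35.6, 38.0 and 32.6 CPM in sh-NC. In neither gene did the groups overlap. Gins2, part of the helicase complex, had a log2 fold change of 0.65 (adjusted p = 0.00129) and Ung, a uracil DNA glycosylase, one of 0.78 (adjusted p = 0.00134), both by edgeR. The lower genes were Pola1 (log2 fold change -0.91), Hells (-0.66) and Prim1 (-0.58), of which Pola1 and Prim1 encode subunits of the polymerase that starts each new strand. Hells lost its call in 3 of the 6 fits that left out a library, and with length and GC content removed it was at 0.079. Without the third sh-NC library 8 genes of this list were higher, 20% against 20.6% of all genes tested in that fit, and without the first sh-NC library 25.0% against 23.9%, so the larger share of higher genes was not present in these fits. Over all 6 fits that left out a library, 5.0 to 10.0% of the list were lower, against 21.3 to 25.8% of all genes tested. The median log2 fold change of the list was 0.13 to 0.24 over the same 6 fits.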

How the data were processed

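The authors sequenced poly(A) RNA of 3 sh-TonEBP and 3 sh-NC libraries and deposited a table of raw read counts per gene. Tools named in the submitters' processing notes were HISAT2 2.0.5, HTSeq 0.9.1, cutadapt 1.15 and DESeq 1.30.0, and the build was GRCm39. The annotation release, the use of strand and the treatment of multiply matching reads were not given in the sources used here. The sh-TonEBP columns do not name TonEBP and were assigned as the only other shRNA of the series.

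Gene symbols were matched for 21795 of 21899 identifiers. With edgeR 4.0.16 in R 4.3.3, 11943 genes were kept (filterByExpr), normalized by TMM and tested by the quasi-likelihood test with Benjamini-Hochberg adjustment over all genes. Each standard error is the size of the log2 fold change over the root of its F statistic, and 95% intervals follow from it. Calls use an adjusted p under 0.05. Replicate libraries differed by more than sampling noise (chi-square per degree of freedom 5.55 to 30.9). The edgeR steps were tested on simulated data with 200 changed genes and no trend on length or GC content. The data here had many more called genes and both trends, which that test does not cover. Transcript lengths and gene order came from GENCODE M21 (GRCm38). Lowess trends on length, or on length and then on GC content, were removed with Python 3.11.15 and statsmodels 0.14.6. The added step on GC content and the joined exon lengths were chosen after seeing the data. Alternatives were DESeq2 1.42.0, other size factors, other filters, the study's cutoffs, a replicate block and leaving out each library.

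The members and lists were chosen with earlier results of these data known. Named genes were all members, Nfat5, the neighbours of Cdkn2a, and of each other list the 4 with the smallest p; the relatives of the members (Ccne2, Cdk2, Cdkn1a, Cdkn1c, Cdkn2d, Rbl1, Rbl2) and the other genes called in the lists were named in addition, after their values were seen. Of the cell type markers, those at 0 in every library, Spi1, Ptprc, Itgam, Aif1 and Csf1r were named. Tmem119, Cd68, Sall1, Laptm5, Col3a1, Prrx1, Krt8 and Krt18 were named in addition, after their values were seen.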

Additional observations from a re-analysis of the deposited data

How the results depend on the processing

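Of 641 alternative values, 535 kept their direction and their side of the threshold, or moved by less than the spread. No alternative count test, scaling or filter changed a call of the 8 genes tested (DESeq2, library totals alone, RLE factors, a minimum mean of 1 CPM, no filter). At the study's cutoffs (log2 fold change beyond 1) 0 members were higher and 1 lower, other G1/S regulators 0 and 3, E2F targets 1 and 0, and all genes 762 and 1019, so that Ccnd2 (-0.64), Ccnd3 (0.70), Ccne1 (0.50), Cdk4 (0.43) and Rb1 (-0.93) lost their calls. With the length trend removed, Ccnd2 was at -0.38, Cdk6 at -0.76, Cdkn1b at 0.21, the median of the members at 0.19 and Cks1b at -0.056 (0.43 before). With length and GC content removed, Ccnd2 was at -0.27, Ccnd3 0.30, Ccne1 0.21, Cdk4 0.13, Cdk6 -0.55, Cdkn1b 0.51, Rb1 -0.43 and the median of the other G1/S regulators 0.037, and 4 of the 39 genes called in the 3 gene lists turned their sign: Cks1b (-0.055), Mnat1 (0.20), Tfdp2 (0.18) and Hells (0.079).

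Leaving out 1 library at a time gave 2488 to 3083 higher and 2578 to 3132 lower genes, 1 to 3 higher and 3 to 3 lower members, 4 to 6 higher and 6 to 8 lower other G1/S regulators (median -0.090 to 0.020) and 8 to 16 higher and 2 to 4 lower E2F targets. The log2 fold changes ranged over 0.04 to 0.19 (Ccnd1), -0.67 to -0.59 (Ccnd2), 0.61 to 0.76 (Ccnd3), 0.40 to 0.55 (Ccne1), 0.36 to 0.52 (Cdk4), -1.38 to -1.22 (Cdk6), 0.06 to 0.15 (Cdkn1b) and -1.05 to -0.73 (Rb1). Ccne1 and Cdk4 lost their calls without the third sh-NC library and in no other such fit. The cause was not tested.

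Whether the replicate numbers pair the libraries cannot be settled from 3 libraries per group. The same-number correlations were 0.195, 0.0501 and -0.108, and only numbers 1 and 2 correlated best with their own. With the replicate block, 3147 genes were higher and 3289 lower, with 3 and 3 members, 6 and 9 other G1/S regulators and 15 and 4 E2F targets. For Cdkn2a and Cdkn2b, depth limits the statement to levels above 0.188 to 0.216 CPM.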

Other observations

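Ratios within a library do not depend on its scaling. The D cyclin sum over Cdkn1b, per kilobase, was 5.78, 4.80 and 4.93 in sh-TonEBP, against 4.6, 4.72 and 5.02 in sh-NC, and the groups overlapped. Cdkn1b over Cdkn1a was 0.82, 1.17 and 1.67 in sh-TonEBP, against 0.34, 0.53 and 0.43 in sh-NC, without overlap. Ccnd3 over Ccnd2 was 4.06, 3.22 and 2.97 in sh-TonEBP, against 1.39, 1.33 and 1.3 in sh-NC, also without overlap. These ratios were not tested and are not adjusted for the trends on length and GC content. With both trends removed, the log2 fold change was 0.30 for Ccnd3 (0.70 before) and -0.27 for Ccnd2 (-0.64 before). It was 0.51 for Cdkn1b (0.10 before) and -1.67 for Cdkn1a (-1.33 before).

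Of the 32 interferon cluster entries beside Mtap, Gm13283 had the most reads, with 19, 24 and 22 counts in sh-TonEBP, against 2, 2 and 12 counts in sh-NC. It was chosen after its values were seen, it belongs to a group of near-identical copies whose reads may be split, and no test was run on it.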
